A study of Mus musculus with 24 samples.

Results

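The comparison described here is the earliest of a time course: mouse mammary glands taken 4 h after a first injection of progesterone, against glands taken 4 h after an injection of its vehicle, sesame oil. It rests on 6 of the 24 arrays of the series, 3 with progesterone and 3 with oil, assigned from the sample titles, and it is described across all 12352 genes tested. The mice were nulliparous Balb/c females, with no transgene or knockout named in the labels, whose ovaries had been removed at 6 weeks of age and who had then rested for 2 weeks. Progesterone mice received 1 mg of the hormone in 100 µl of oil under the skin, and control mice received 100 µl of oil. Neither group is described as receiving estrogen, and on the daily schedule the mice of 4 h had received 1 injection. Each array carried pooled mammary RNA of 5 mice, so that 15 mice stand behind each group, and the p-values below rest on how much pools differ and say nothing of single mice. The other 18 arrays, of progesterone and oil groups killed 16, 28 and 76 h after the first injection, served here to estimate the spread and to show what became of the genes that changed at 4 h.

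Progesterone acts mainly through the progesterone receptor, a nuclear receptor that binds DNA when it holds the hormone and that, in the mammary epithelium, is carried by a subset of luminal cells. These hormone-sensing cells release paracrine factors, among them RANK ligand (Tnfsf11), Wnt4 and amphiregulin, that act on neighbouring cells without the receptor and drive side-branching and alveolar growth. Synthesis of the receptor normally depends on estrogen, and hormone-bound receptor is degraded and its gene repressed. Amphiregulin, calcitonin and the prolactin receptor, which belong to this system, are not analysed here.

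Expression was read on Affymetrix Mouse Genome 430 2.0 arrays, as linear intensities, and each gene was read from its brightest probe set on average. The 6 arrays had near-equal median intensities, from 62.8 to 67.3. The third progesterone array stood apart from its mates: its log2 values correlated with theirs at r = 0.978 and 0.980 across genes, whereas replicates 1 and 2 correlated at 0.991, and 138 genes lay more than 1 log2 unit from the mean of the mates, against 57 to 84 on the other 5 arrays. The log2 ratio of 3' to 5' control probes of actin was 0.41 to 0.44 on the oil arrays and 0.51 to 0.59 on the progesterone arrays. The same ratio for Gapdh was 0.03, -0.09 and -0.17 on the oil arrays, 0.25 and 0.34 on progesterone replicates 1 and 2, and 0.00 on replicate 3, and the part of these differences in the results, those called only without replicate 3 included, was not tested. Tissue identity was checked with marker genes. Keratins of the luminal layer (Krt8, at 855 to 1015 on the oil arrays) and of the basal layer (Krt5, at 200.4 to 236) stood well above the array medians, as did markers of white adipocytes such as Lipe, and markers of lymphocytes and skeletal muscle were present too. In such bulk RNA, fewer cells of a type and less RNA per cell cannot be told apart.

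At 4 h, 23 of 12352 genes had changed (0.186% of the genes tested; limma, Benjamini-Hochberg adjusted p under 0.05). Progesterone raised 16 of them (0.13%) and lowered 7 (0.0567%). The largest rises were in Aldh3a1, B3gnt7, Cntnap2, Fgg and Acot1, and the largest fall was in Pgr, the gene of the progesterone receptor itself. Absolute log2 fold changes ran from 0.34 to 3.82, and 15 genes, 11 higher and 4 lower, changed by more than 1 log2 unit. Without adjustment, 1557 genes had p under 0.05, of which 426 were higher and 1131 lower, so that more genes lay low than high below the adjusted threshold. The median log2 fold change of all genes was -0.01. Single arrays moved the count of 23: leaving out progesterone replicate 3 gave 477 calls, leaving out progesterone replicate 2 gave 14, and dropping progesterone replicate 1 or oil replicate 2 gave 12 each. Dropping oil replicate 3 of 16 h gave 35. After quantile normalization 22 genes were higher and 5 lower, in place of 16 and 7.

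Pgr fell furthest of the 7 lower genes. Its probe set read 489.9, 493 and 411 on the oil arrays and 87.8, 99.9 and 69.0 on the progesterone arrays. Every progesterone array lay far below every oil array, and the means were 464 ± 46.6 with oil and 85.5 ± 15.6 with progesterone (SD, n = 3 arrays each). The log2 fold change was -2.45 ± 0.21 (SE, adjusted p = 2.02e-07), a 5.47-fold fall, and progesterone replicate 3 was the lowest of the arrays. The summed intensity of 13 pan-luminal marker genes was also lower on every progesterone array, from 7289 to 7964 with oil and from 6462 to 7043 with progesterone, a much smaller difference, and its part in the falls of luminal genes was not tested. Esr1, the estrogen receptor, had a log2 fold change of 0.21 ± 0.12 (SE, adjusted p = 0.514). Among the 8 tested markers of hormone-sensing luminal cells, 2 lay wholly above oil (Wnt4 and Cited1) and 3 wholly below (Pgr, Foxa1 and Gata3). Over all genes the shares were 6.12% and 12.8%. The part of such cells in the Pgr fall was not tested.

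The 250 bases before the start of Pgr and of the 4 most changed other genes that had a promoter entry are shown because these genes moved furthest in the first hours of exposure; they come from the RefSeq promoter windows of build GRCm38.p6, 5′ to 3′, all on the plus strand. Capitals mark the half-site AGAACA and the core ACANNNTGT of the DNA element bound by progesterone and glucocorticoid receptors, searched on both strands, where the half-site reads TGTTCT on the opposite strand. The window of Pgr lies at chr9:8899583-8899832, B3gnt7 at chr1:86302971-86303220, Cntnap2 at chr6:45059811-45060060 (the first of its 2 windows), Fgg at chr3:83007474-83007723 and Acot1 at chr12:84009252-84009501.
Pgr: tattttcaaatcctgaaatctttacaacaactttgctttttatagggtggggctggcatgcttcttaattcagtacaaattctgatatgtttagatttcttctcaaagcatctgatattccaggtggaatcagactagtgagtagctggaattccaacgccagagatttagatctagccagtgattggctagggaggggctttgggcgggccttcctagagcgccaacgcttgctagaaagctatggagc
B3gnt7: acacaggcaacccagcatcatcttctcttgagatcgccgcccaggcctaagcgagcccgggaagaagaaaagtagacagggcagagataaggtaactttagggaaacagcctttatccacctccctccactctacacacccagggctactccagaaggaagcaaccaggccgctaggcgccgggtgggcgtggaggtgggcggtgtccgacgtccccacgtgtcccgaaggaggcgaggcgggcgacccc
Cntnap2: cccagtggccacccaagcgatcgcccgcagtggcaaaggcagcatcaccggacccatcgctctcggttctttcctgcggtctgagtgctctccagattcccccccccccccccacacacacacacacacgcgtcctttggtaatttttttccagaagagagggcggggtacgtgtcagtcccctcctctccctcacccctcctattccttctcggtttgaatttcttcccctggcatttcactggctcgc
Fgg: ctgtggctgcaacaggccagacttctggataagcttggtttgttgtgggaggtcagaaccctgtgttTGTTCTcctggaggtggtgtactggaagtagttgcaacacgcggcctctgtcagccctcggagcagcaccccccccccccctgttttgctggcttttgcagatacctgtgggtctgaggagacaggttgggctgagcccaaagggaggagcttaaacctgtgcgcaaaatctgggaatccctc
Acot1: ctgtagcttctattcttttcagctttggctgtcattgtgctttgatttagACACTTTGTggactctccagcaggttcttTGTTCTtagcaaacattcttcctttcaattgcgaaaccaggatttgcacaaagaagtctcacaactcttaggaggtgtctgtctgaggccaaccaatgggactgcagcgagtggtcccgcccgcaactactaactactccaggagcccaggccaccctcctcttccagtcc

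The Fgg window held 1 half-site, which began 183 bases before the start, and the Acot1 window held a half-site at -171 and a core at -200. No match stood in the windows of Pgr, B3gnt7 and Cntnap2. Of the 23 changed genes, 17 had at least 1 window (250 bases before to 50 after the start), and Aldh3a1, Eppk1, Ly6d, Ppp1r1b, Slc12a2 and Slc7a2 had none. A half-site was found in windows of 3 of the 17 genes (17.6%; Fgg, Acot1 and Tceal9) and a core in 2 (11.8%; Acot1 and Nek7). Among all genes with a window, 21.3% held a half-site and 7.9% a core, and among tested genes the shares were 15.1% and 5.18%. These counts describe letters in short windows and carry no test.

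The 4 largest rises were in genes of unlike function. Aldh3a1, an aldehyde dehydrogenase that oxidizes reactive aldehydes, read 21.8, 35.8 and 41.1 on the oil arrays and 579.8, 418 and 374 on the progesterone arrays. Its log2 fold change of 3.82 ± 0.29 (SE, adjusted p = 3.22e-08) was the largest at 4 h, a 14.1-fold rise. B3gnt7, a glycosyltransferase that extends N-acetyllactosamine chains, read 30.1, 20.5 and 25.6 with oil and 305, 222 and 152 with progesterone, a log2 fold change of 3.11 ± 0.30 (SE, adjusted p = 1.29e-06). For both genes the lowest progesterone array stood several times above the highest oil array. Cntnap2, an adhesion protein of the neurexin family best known from axons, read 15.5, 19.5 and 18.2 with oil and 219, 153 and 77.0 with progesterone, a log2 fold change of 2.96 ± 0.36 (SE, adjusted p = 5.33e-05). Fgg, the gamma chain of fibrinogen, read 89.8, 47.7 and 91.5 with oil and 307, 516 and 273 with progesterone, a log2 fold change of 2.26 ± 0.26 (SE, adjusted p = 2.69e-05). The other chains of fibrinogen, Fga and Fgb, did not pass the filter on low values. The oil intensities of Aldh3a1, B3gnt7 and Cntnap2 lay below the median of their arrays, near background, so that their fold changes are less exact than those of brighter genes, and the same held for Ppp1r1b, Depdc7 and Wfdc12.

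A second set of rises concerned lipid enzymes, signalling and attachment. Acot1, a cytosolic thioesterase that releases fatty acids from coenzyme A, read 129, 100.3 and 122 on the oil arrays and 566, 531 and 308 on the progesterone arrays. Its log2 fold change was 1.96 ± 0.27 (SE, adjusted p = 0.000365), whereas its close relative Acot2, whose sequence is much alike, stood at 0.01 ± 0.12 (SE, adjusted p = 0.99). Mboat1, an acyltransferase of lysophospholipids, read 131, 121 and 115 with oil and 438, 415 and 316 with progesterone, a log2 fold change of 1.66 ± 0.19 (SE, adjusted p = 2.58e-05). Ppp1r1b, which encodes the phosphatase inhibitor DARPP-32, read 35.0, 34.3 and 35.9 with oil and 108, 93.5 and 112 with progesterone, a log2 fold change of 1.57 ± 0.24 (SE, adjusted p = 0.00163). The groups did not overlap for any of these genes. Eppk1, the keratin-binding cytolinker epiplakin, read 317, 242 and 320.3 with oil and 806, 679 and 448 with progesterone, a log2 fold change of 1.11 ± 0.16 (SE, adjusted p = 0.000531). Itga3, the integrin chain that pairs with beta 1 as a laminin receptor, read 152, 138 and 138 with oil and 362, 361 and 206 with progesterone, a log2 fold change of 1.07 ± 0.20 (SE, adjusted p = 0.0139). In both genes the third progesterone array was the one closest to oil. Wfdc12, of the whey acidic protein family of protease inhibitors, read 30.5, 30.8 and 30.2 with oil and 73.6, 85.0 and 68.9 with progesterone, a log2 fold change of 1.31 ± 0.25 (SE, adjusted p = 0.0196). Depdc7 read 39.8, 34.0 and 38.1 with oil and 122, 118 and 65.3 with progesterone, a log2 fold change of 1.40 ± 0.24 (SE, adjusted p = 0.00566).

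The other rises were small and lay in well-measured genes. Mt2, a metallothionein that binds zinc and is a classic target of steroid hormones, read 763, 657 and 747 with oil and 1306, 1510.1 and 1333 with progesterone, a log2 fold change of 0.94 ± 0.18 (SE, adjusted p = 0.0228). Fam210b, a mitochondrial protein, read 318, 273 and 303 with oil and 514, 518 and 413 with progesterone, a log2 fold change of 0.69 ± 0.12 (SE, adjusted p = 0.00554). Tceal9 read 1765, 1651 and 1814 with oil and 2397, 2729.9 and 2456 with progesterone, a log2 fold change of 0.53 ± 0.08 (SE, adjusted p = 0.000848). Of this set, Mt2 and Tceal9 had progesterone replicate 3 between the other two. Nek7, a kinase of the mitotic spindle and of the NLRP3 inflammasome, had a log2 fold change of 0.40 ± 0.07 (SE, adjusted p = 0.00554), with 1601 ± 26.8 with oil and 2110.2 ± 121 with progesterone (SD, n = 3 arrays each). Rbbp7, a histone-binding subunit of several chromatin complexes, showed the smallest rise, 0.34 ± 0.06 (SE, adjusted p = 0.00773), with 2940.3 ± 93.8 with oil and 3739.6 ± 265 with progesterone (SD, n = 3 arrays each).

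The 7 falls, with Pgr at their head, included transporters and a luminal transcription cofactor. Slc12a2, the sodium-potassium-chloride cotransporter NKCC1 of secretory epithelia, read 2737, 2712 and 2527 on the oil arrays and 1412, 1417 and 1164 on the progesterone arrays. Its log2 fold change was -1.00 ± 0.10 (SE, adjusted p = 2.36e-06), and its other 2 probe sets gave -1.42 and -1.39, both called as well. Ly6d, a surface protein of the LY6 family, read 308, 305 and 304 with oil and 147, 129 and 132 with progesterone, a log2 fold change of -1.17 ± 0.20 (SE, adjusted p = 0.00453). The Ly6d arrays of each group lay close together, with no array near the other group. Slc7a2, a transporter of arginine and other cationic amino acids, read 580.4, 689 and 389.6 with oil and 290.2, 316 and 203 with progesterone, a log2 fold change of -1.02 ± 0.20 (SE, adjusted p = 0.0237). Lmo4, a LIM-only cofactor of luminal epithelium, read 753, 852 and 749 with oil and 546, 489.8 and 622 with progesterone, a log2 fold change of -0.51 ± 0.10 (SE, adjusted p = 0.0225). Tpgs1, a subunit of the tubulin polyglutamylase complex, read 400.3, 402 and 471 with oil and 247, 225 and 335 with progesterone, a log2 fold change of -0.68 ± 0.14 (SE, adjusted p = 0.0276). Sqstm1, the autophagy receptor p62, was the weakest call, with 2457, 2533 and 2356 with oil and 1706, 1589.7 and 2083 with progesterone and a log2 fold change of -0.46 ± 0.10 (SE, adjusted p = 0.045). In Lmo4, Tpgs1 and Sqstm1 the third progesterone array was again the one nearest to oil, whereas in Pgr, Slc12a2 and Slc7a2 it was the farthest.

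**Figure D1:**
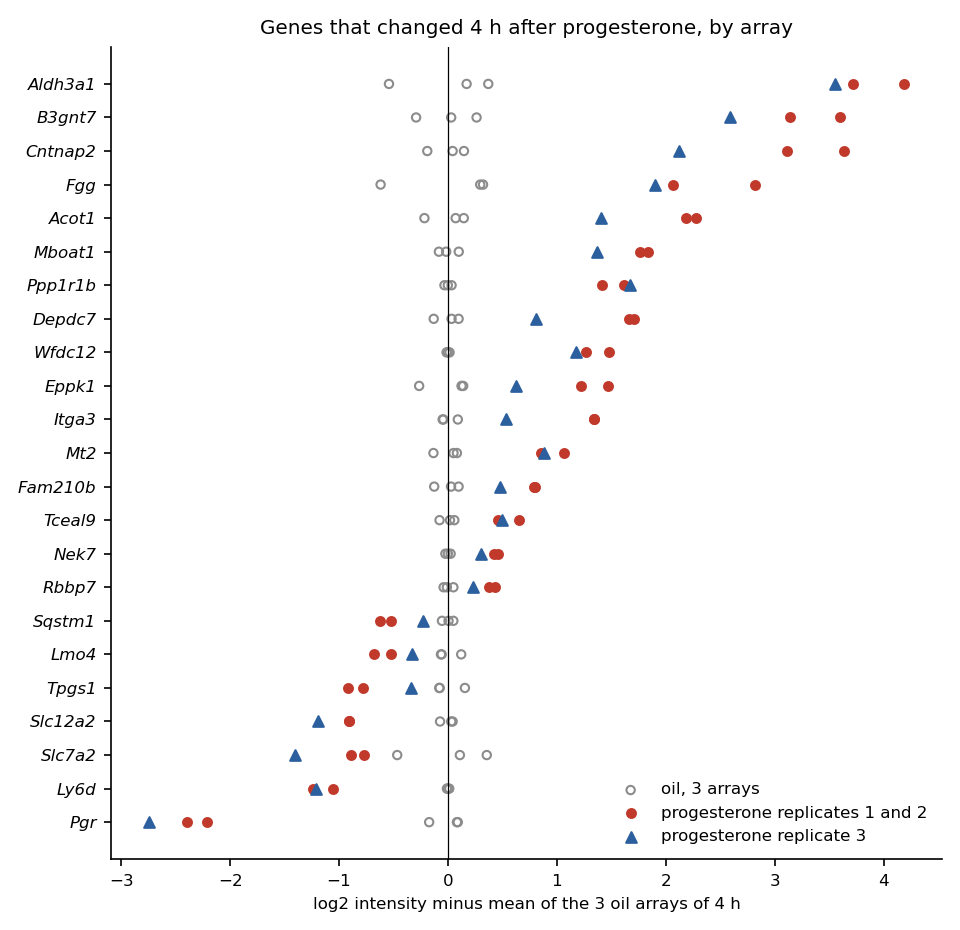
Log2 intensity of the 23 changed genes on each of the 6 arrays of 4 h, minus the mean of the 3 oil arrays. Open circles are oil arrays, red points progesterone replicates 1 and 2, and blue triangles progesterone replicate 3. The 3 progesterone arrays of every gene lie on 1 side of the 3 oil arrays, and replicate 3 is the one nearest to oil in 16 genes.

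For each of the 23 genes the 3 progesterone arrays lay wholly above or wholly below the 3 oil arrays. Among all genes tested, 756 (6.12%) lay wholly above and 1586 (12.8%) wholly below. Leaving out any 1 of the 6 arrays of 4 h kept the call of 12 genes: Aldh3a1, B3gnt7, Cntnap2, Fgg, Acot1, Mboat1, Ppp1r1b, Eppk1, Tceal9, Pgr, Slc12a2 and Ly6d. The other 11 lost it without at least 1 array, in each case with the direction kept. Of these, Lmo4, Sqstm1, Tpgs1, Mt2 and Wfdc12 were called in only 1 of the 6 leave-one-out fits, the one without progesterone replicate 3. Further probe sets existed for 6 genes. Besides those of Slc12a2, the probe sets of Itga3, Fam210b, Nek7, Rbbp7 and Mboat1 had log2 fold changes from 0.17 to 0.60, all in the direction of the call and none of them called. With the oil arrays of 16 and 76 h as controls in place of those of 4 h, where 693 genes (5.61%) were called, 22 of the 23 were called in the same direction, and Sqstm1, at -0.05, was not. With the oil of 28 h added to these controls, 804 genes were called, 22 of the 23 among them.

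The later times of the series, which have arrays and oil controls of their own, show where these genes stood afterwards. On the daily schedule, mice of 28 and 76 h would have been injected again before they were killed. Their values therefore do not show how long the changes of a first dose lasted. Of the 23 genes, 19 had the same direction at 16 h, 21 at 28 h and 17 at 76 h. Calls in the same direction numbered 8 at 16 h, where 0.308% of all genes were called, 10 at 28 h (2.53%) and 11 at 76 h (17.8%). Over all genes, 35.3%, 50.9% and 54.0% lay above 0 at these times.

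Aldh3a1, B3gnt7, Cntnap2, Fgg, Tpgs1 and Sqstm1 were called at 4 h and at no later time. Aldh3a1 had log2 fold changes of 0.96 at 16 h, 0.49 at 28 h and -0.46 at 76 h, after 3.82 at 4 h. B3gnt7 went from 3.11 at 4 h to 1.18 at 16 h, 0.98 at 28 h and 0.11 at 76 h, and Cntnap2 from 2.96 to 0.68 at 16 h, 0.91 at 28 h and 0.42 at 76 h. In Fgg, 2.26 at 4 h was followed by 0.32 at 16 h, 0.18 at 28 h and -0.57 at 76 h. A test of the 4 h log2 difference against the mean of the 3 later ones, which called 87 genes in all (0.704%), called the first 4 of these and Tpgs1, but not Sqstm1 (adjusted p = 0.0623). The gap between 4 h and later was 3.49 for Aldh3a1 (adjusted p = 3.32e-06), 2.36 for B3gnt7 (0.000708), 2.29 for Cntnap2 (0.00636), 2.28 for Fgg (0.00061) and -0.83 for Tpgs1 (0.00802). Against the 16 h difference alone, the same limma fit called 1 gene, Aldh3a1 (adjusted p = 0.00394). B3gnt7 (adjusted p = 0.21), Cntnap2, Fgg and Tpgs1 were not called there, so their difference from 16 h is not established.

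Pgr, Slc12a2 and Lmo4 also differed between 4 h and later, by -1.53, -0.71 and -0.74 on the log2 scale (adjusted p = 0.00146, 0.0023 and 0.00146). The Pgr log2 fold change was -2.45 at 4 h, -1.44 at 16 h and -1.33 at 28 h, all called. At 76 h it was 0.00. The test against 16 h alone, which called Aldh3a1 and no other gene, did not call Pgr, Slc12a2 or Lmo4. Slc12a2 went from -1.00 to -0.74 at 16 h, -0.47 at 28 h and 0.32 at 76 h, called at every time and higher at the last. Lmo4 stood at 0.04 and -0.09 at 16 and 28 h, where it was not called, and at 0.73 at 76 h, where it was called higher (adjusted p = 1.13e-05). Slc12a2 and Lmo4 were the 2 of the 23 genes called in the opposite direction at a later time.

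Mboat1, Tceal9 and Ly6d were called in the same direction at every time. Ly6d had nearly constant log2 fold changes, -1.17 at 4 h and -1.23 at 16 h, -1.01 at 28 h and -1.14 at 76 h. Mboat1 stood at 1.66 and then at 1.02 at 16 h, 0.98 at 28 h and 1.04 at 76 h. Acot1 was called at 4, 28 and 76 h and was highest at 76 h, where its log2 fold change was 3.57. Slc7a2 was called at 4, 16 and 28 h, with -1.16 at 16 h, -1.13 at 28 h and -0.55 at 76 h after -1.02. Wfdc12, Eppk1, Itga3, Mt2, Fam210b, Nek7 and Rbbp7 were each called again at 76 h, higher as at 4 h, Ppp1r1b was called again at 16 h and Depdc7 at 28 h.

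**Figure D2:**
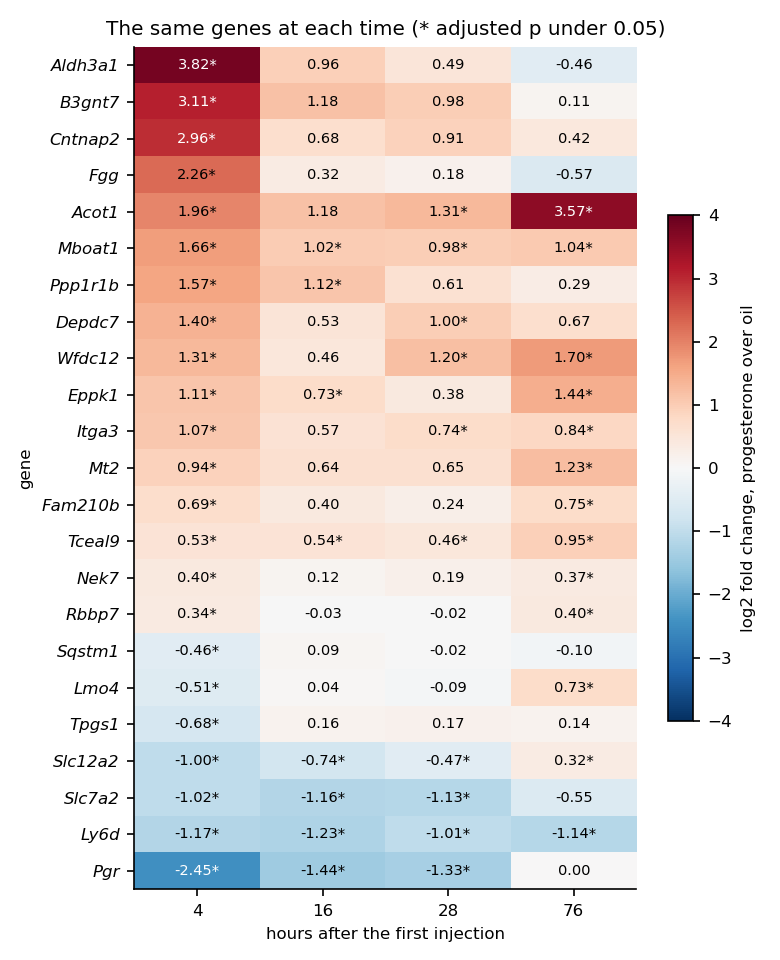
Log2 fold change of progesterone over oil for the 23 genes changed at 4 h (rows) at 4, 16, 28 and 76 h after the first injection (columns), each against the oil arrays of its own time. An asterisk marks an adjusted p under 0.05; Aldh3a1, B3gnt7, Cntnap2 and Fgg carry one at 4 h alone.

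The fit was repeated without progesterone replicate 3. All 23 genes remained called, with adjusted p at most 0.0283, and 18 of them had a larger absolute log2 fold change without that array. Replicate 3 was the nearest of the progesterone arrays to oil in 16 of the 23 genes, 13 of them higher and 3 lower, and the farthest in 4 (Ppp1r1b, Pgr, Slc12a2 and Slc7a2). Its log2 difference from the oil mean was between 39.5% (Itga3) and 169.7% (Slc7a2) of the mean difference of replicates 1 and 2, with a median of 76.2%. All 3 replicates are set against the same oil arrays in these values.

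Without replicate 3, 477 genes were called (3.86%), 105 higher (0.85%) and 372 lower (3.01%), so that 454 genes, 89 higher and 365 lower, were called only then. After quantile normalization the same fit called 645 genes, 348 higher and 297 lower, so that the preponderance of falls depended on the scaling. The count also rested on the 2 arrays that remained: it was 13 without progesterone replicate 2 as well and 108 without replicate 1, and 196 or 142 without oil replicate 2 or 3. In the direction called, the median log2 difference of the 454 genes from oil was 0.56 on replicates 1 and 2 and 0.12 on replicate 3. Both values follow from the choice of the genes, which had to pass the threshold without replicate 3 and miss it with replicate 3, so they are a description and show neither presence nor absence of a change on that array. With the oil of 16 and 76 h as controls and replicate 3 kept, 115 of the 454 were called in the same direction. Over all genes 5.61% were called there, in either direction. The progesterone arrays are the same in both comparisons, so the 115 are no independent support.

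**Figure D3:**
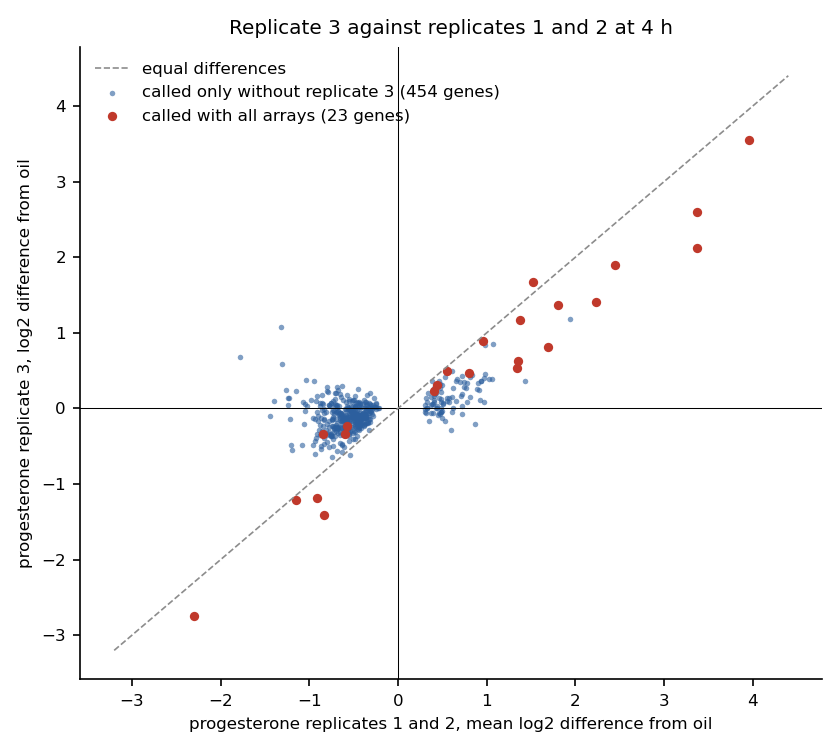
Log2 difference from the 3 oil arrays of 4 h on progesterone replicate 3 (vertical axis) against the mean of progesterone replicates 1 and 2 (horizontal axis), for the 23 genes called with all arrays (red) and the 454 called only without replicate 3 (blue). Both axes share the oil arrays and both took part in choosing the genes, so the plot is a description; most red points lie near the dashed line of equal differences, whereas the blue points lie near 0 on replicate 3, with a median of 0.12 in the direction called against 0.56.

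The largest rises among these 454 genes, restricted to those whose 3 progesterone arrays all lay outside the range of oil, began with Npas2, a partner of the clock protein BMAL1. It read 16.6, 15.2 and 8.05 with oil and 49.8, 47.7 and 28.8 with progesterone, below the array median on all 6 arrays. Its log2 fold change was 1.69 ± 0.43 (SE, adjusted p = 0.0967) with all arrays and 1.94 (adjusted p = 0.0218) without replicate 3. Lalba, the milk protein alpha-lactalbumin, read 97.3, 84.1 and 55.7 with oil and 209, 206 and 98.7 with progesterone, with 1.08 ± 0.25 (SE, adjusted p = 0.0864) for all arrays and 1.43 (0.00121) without replicate 3. Wnt4, a paracrine ligand induced by progesterone, read 66.8, 92.0 and 77.2 with oil and 159, 168 and 140.1 with progesterone. Its log2 fold change of 0.99 ± 0.22 (SE, adjusted p = 0.0688) missed the threshold with all arrays and passed it without replicate 3 (1.07, adjusted p = 0.0169). Wnt4 was called at each later time, with 1.33 at 16 h, 1.27 at 28 h and 2.22 at 76 h. Prom2, Arg2, Kcnh1, Tmem238l, Vipr1, Kcnk1, Plekhh1, Cnr1, Tfcp2l1, Enho, Nipal2 and Rassf6 completed the list, with log2 fold changes from 0.78 to 1.06 without replicate 3 and adjusted p from 0.0871 to 0.155 with all arrays. Arg2, the mitochondrial arginase, stood at 2.50 at 76 h, where the potassium channel genes Kcnh1 and Kcnk1 stood at 1.57 and 1.63, all called. Vipr1 and Cnr1, receptors of vasoactive intestinal peptide and of cannabinoids, were not called at any later time.

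The corresponding falls included 1 probe set annotated to a microRNA locus, Mir142, which was not matched to a transcript and whose values are not given. The next was Ldb1. This gene, the partner that binds LIM-only proteins such as Lmo4, read 510.4, 677 and 504 with oil and 235, 252 and 381 with progesterone, with -0.98 ± 0.24 (SE, adjusted p = 0.088) and -1.20 (0.01) in the same order. All 3 progesterone arrays of Ldb1 lay below oil, which was a condition of entry to this list. Immune genes on the list were Nfkb2, a subunit of NF-kB, Il10ra and Il2rb, receptor chains for interleukins, and Mcpt4, a mast cell protease, at -0.96, -0.93, -0.94 and -0.89 without replicate 3. Id1, an inhibitor of helix-loop-helix factors, stood at -0.88, Fdps, a farnesyl diphosphate synthase of the sterol pathway, at -0.90, and Bsg, the chaperone basigin of lactate transporters, at -0.90. The remaining 6 were Mapk8ip1, Fbln1, Cpeb1, Rbm38, Bin1 and Ciart, between -1.09 and -0.87. None of the 15 was called at 16 h; Fbln1 and Mcpt4 were called higher at 28 h and Fdps lower at 76 h.

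At the later times the 89 higher genes had the same direction in 42 cases at 16 h, 70 at 28 h and 68 at 76 h. Of these genes 2, 13 and 31 were called in that direction and 0, 0 and 3 in the opposite one. Over all genes, 35.3%, 50.9% and 54.0% lay above 0 at these times, and 0.308%, 2.53% and 17.8% were called in either direction. The 365 lower genes had the same direction in 215, 210 and 202 cases, with 0, 4 and 36 calls in that direction and 0, 3 and 22 in the opposite one.

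Gene groups were then described, members that missed the threshold included. Of 43 lists of pathways and gene families, 15 held a gene called with all arrays, and 34 had a median log2 fold change within 0.1 of 0. The lists were chosen with earlier results of these data known, so the count of 15 is a description and no evidence for any family. Beside each, the reference is the same over all genes: a median of -0.01, 5881 of 12352 genes above 0, and 6.12% wholly above and 12.8% wholly below oil. Quantile normalization moved the median of all genes to 0.04 and centring on array medians to -0.04, and with these scalings the medians of 22 of the 57 lists, none of them further than 0.0626 from 0, changed sign. This held for the lists of steroid receptors, progesterone-responsive genes, glucocorticoid and progestin targets, NF-kB, luminal factors, acyl-CoA metabolism, lysophospholipid acyltransferases, glycosyltransferases, basal cells and fibroblasts described below, whose medians therefore carry no direction.

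Receptors and paracrine genes of the progesterone system were mostly near the oil level, apart from Pgr and Wnt4. Among 19 steroid receptors and partners tested, the median was -0.04 and Pgr was the one called. Esr1, the estrogen receptor, read 1486, 1417 and 1304 with oil and 1576, 2027 and 1319 with progesterone, with overlapping groups. Fkbp4, the co-chaperone that supports the progesterone receptor, stood at -0.45 ± 0.13 (SE, adjusted p = 0.136) and was called without replicate 3 (-0.58, adjusted p = 0.015). Of the 15 tested progesterone-responsive mammary genes 7 lay above 0, with a median of 0.00 on the log2 scale, and 4 lay wholly above oil (Wnt4, Cited1, Id4 and Egf). Tnfsf11, which encodes RANK ligand, read 35.8, 41.0 and 56.5 with oil and 44.3, 37.5 and 64.4 with progesterone, a log2 fold change of 0.12 ± 0.29 (SE, adjusted p = 0.903). Its 2 groups overlapped at 4 h, and its log2 fold change at 76 h was 3.03. Elf5, the alveolar transcription factor, stood at -0.29 ± 0.27 (SE, adjusted p = 0.713), and Cyclin D1 (Ccnd1) at -0.26 ± 0.11 (SE, adjusted p = 0.328).

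WNT ligands had 8 tested members with a median of 0.20 (0.36 without replicate 3), 5 of them above 0. After Wnt4 came Wnt2, a ligand of the stroma, with 148, 119.9 and 134 with oil and 178, 194 and 151 with progesterone and a log2 fold change of 0.37 ± 0.20 (SE, adjusted p = 0.439). Without the filter on low values, which adds faint ligands, the median was 0.00. The EGF family and its receptors, 9 genes, had a median of 0.21 with 7 above 0, and of 0.06 against the oil of 16 and 76 h. Erbb3, a receptor for neuregulins, read 445, 419.7 and 338 with oil and 628, 682 and 456 with progesterone, at 0.54 ± 0.16 (SE, adjusted p = 0.147) with all arrays and 0.72 (0.0131) without replicate 3. Nrg4, a neuregulin of adipose tissue, went the other way, at -0.65 and -0.74 (0.0495). Of 15 RANK ligand and NF-kB genes, 5 lay wholly below oil, Nfkb2, Traf2, Rela, Relb and Ikbkb, and none wholly above. Their log2 fold changes were -0.80, -0.39, -0.15, -0.24 and -0.13, and Nfkb2 and Traf2 were called without replicate 3. The list's median was 0.03, with 8 members above 0.

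Luminal transcription factors were divided. Of 22 tested, 10 lay above 0 and 12 below, with a median of -0.01, 3 wholly above and 5 wholly below oil. The 5 were Lmo4, which was called, Ldb1, Foxa1, Gata3 and Foxi1. Foxa1, the pioneer factor of hormone-sensing cells, read 928, 789 and 815 with oil and 486, 642 and 468 with progesterone, a log2 fold change of -0.68 ± 0.15 (SE, adjusted p = 0.0839). Gata3, needed for luminal fate, read 595, 578 and 459.9 with oil and 372, 414 and 361 with progesterone, a log2 fold change of -0.50 ± 0.14 (SE, adjusted p = 0.126). Foxi1, a factor of ion-transporting cells, read 81.6, 70.5 and 98.8 with oil and 37.9, 48.5 and 39.1 with progesterone, a log2 fold change of -1.00 ± 0.24 (SE, adjusted p = 0.0871). These 3 missed the threshold with and without replicate 3. The 3 above oil were Cited1, at 0.61 ± 0.22 (SE, adjusted p = 0.229), Tfap2b, at 0.44 ± 0.17 (SE, adjusted p = 0.265), and Klf5, at 0.55 ± 0.15 (SE, adjusted p = 0.108), of which Klf5 was called without replicate 3 (0.65, adjusted p = 0.0264). Foxa1 was one of the genes whose 4 h difference was unlike the later ones (-0.89, adjusted p = 0.0142), with -0.40 at 16 h, 0.05 at 28 h and 0.98 at 76 h.

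The 4 Id genes, inhibitors of helix-loop-helix factors, were divided as well. Id1 read 836, 805 and 980.1 with oil and 525, 429 and 681 with progesterone, a log2 fold change of -0.70 ± 0.19 (SE, adjusted p = 0.12), and Id3 stood at -0.32 ± 0.10 (SE, adjusted p = 0.188), both with all progesterone arrays below oil. Id4 read 259, 243 and 273 with oil and 309.8, 359 and 386 with progesterone, all above oil, with 0.44 ± 0.14 (SE, adjusted p = 0.18). Its log2 fold change was 0.55 at 16 h, 1.52 at 28 h and 2.73 at 76 h, and the gap between 4 h and later was -1.16 (adjusted p = 0.00061). Id2 stood at -0.21. None of the 4 was called with all arrays.

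Metallothionein and zinc genes, 10 tested, had a median of 0.16 with 8 above 0 and 3 wholly above oil. Mt1 read 3006, 2837 and 2842 with oil and 3683, 4018 and 3240.1 with progesterone, a log2 fold change of 0.33 ± 0.10 (SE, adjusted p = 0.138), and was called without replicate 3 (0.41, adjusted p = 0.0233). Mt1 and Mt2 are much alike in sequence, so that their probe sets may share signal. Slc39a14, a zinc importer, stood at 0.33 ± 0.13 (SE, adjusted p = 0.263). Other targets shared with glucocorticoids were not called. Fkbp5, Tsc22d3 and Zbtb16 had log2 fold changes of 0.11, -0.16 and -0.26 (adjusted p = 0.898, 0.744 and 0.748), and the median of the 22 genes of that list was 0.01. Of 23 immediate early genes none was called, the median was 0.06 (-0.05 against the oil of 16 and 76 h), and Btg2 and Ier2 were called lower without replicate 3. Btg2, an antiproliferative gene, read 823, 1266 and 1801 with oil and 553, 479 and 1456 with progesterone, so that progesterone replicate 3 lay within the range of oil.

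The enzymes with large rises were the single called members of their lists, which were chosen with earlier results of these data known. Among 15 aldehyde dehydrogenases the median was 0.06 and Aldh3a1 was the one called; Aldh2, the mitochondrial enzyme of acetaldehyde, stood at -0.41 ± 0.12 (SE, adjusted p = 0.135) and was called lower without replicate 3. The next largest rise in this family was Aldh1a2, a retinoic acid synthase, at 0.41 ± 0.18 (SE, adjusted p = 0.327). Among 19 glycosyltransferases of N-acetyllactosamine and mucin chains, with a median of 0.00, B3gnt7 was followed by Gcnt2 at 0.41 ± 0.14 (SE, adjusted p = 0.213), while St3gal4, a sialyltransferase, stood at -1.00 ± 0.32 (SE, adjusted p = 0.177). Acot1 was the one called of 20 genes of acyl-CoA metabolism (median -0.05), and Mboat1 the one called of 14 lysophospholipid acyltransferases (median 0.01). Of 21 genes of fatty acid and triglyceride synthesis, 20 lay below 0, 6 wholly below oil and none wholly above, although none was called with or without replicate 3. Their median was -0.08, and against the oil arrays of 16 and 76 h it was 0.11. Dgat1, which makes triglycerides, and Srebf1, the factor that controls fatty acid synthesis, stood at -0.43 ± 0.15 (SE, adjusted p = 0.208) and -0.34 ± 0.11 (SE, adjusted p = 0.17).

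Ion transporters of epithelia, 17 tested, had 6 genes wholly below oil and 1 above, with a median of -0.08. Besides Slc12a2, the water channel Aqp5 read 469, 447 and 411 with oil and 292, 286 and 311 with progesterone, a log2 fold change of -0.58 ± 0.15 (SE, adjusted p = 0.103), and was called without replicate 3 (-0.61, adjusted p = 0.0467). Amino acid transporters (18 genes) had a median of -0.11 (0.08 against the oil of 16 and 76 h), and none but Slc7a2 was called. Milk protein genes (10 genes) had a median of -0.02 (0.13 against that oil); apart from Lalba, Csn3 read 1788, 1308 and 1703 with oil and 2228, 2562 and 1869.9 with progesterone, a log2 fold change of 0.47 ± 0.19 (SE, adjusted p = 0.291), and Csn2, beta-casein, lay at the background on all 6 arrays, from 5.7 to 12.5.

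Clock genes lay on both sides of oil. Of 19 tested, 3 lay wholly above oil (Npas2, Clock and Arntl, which encode the activators) and 8 wholly below (Dbp, Tef, Hlf, Ciart, Per2, Per3, Bhlhe40 and Rora, among them outputs and repressors of those activators). None was called with all arrays. Without replicate 3, Npas2 and Clock were called higher and Per1, Ciart and Tef lower. Clock read 393, 361 and 382 with oil and 504, 539 and 485 with progesterone, a log2 fold change of 0.43 ± 0.11 (SE, adjusted p = 0.0967). Dbp, an output factor driven by the activators, read 2383, 3165 and 2179.7 with oil and 1035, 1545 and 1317 with progesterone, a log2 fold change of -0.99 ± 0.27 (SE, adjusted p = 0.11). Tef, of the same family, read 1161, 1382 and 1181 with oil and 687, 929 and 831 with progesterone, a log2 fold change of -0.61 ± 0.13 (SE, adjusted p = 0.0653). Per1, a repressor that hormones also induce, read 247, 423 and 433 with oil and 139, 168 and 324 with progesterone, with -0.86 ± 0.26 (SE, adjusted p = 0.154) for all arrays and -1.22 (0.00671) without replicate 3. The median of the list was -0.27 against the oil arrays of 4 h but 0.03 against those of 16 and 76 h, since the median of its genes on the oil arrays of 4 h was 0.39 higher than at 16 and 76 h. Against that other oil, Npas2 stood at -0.18, Clock at -0.09 and Dbp at 0.40, each with its sign turned. If all first injections fell at the same hour, 76 h would match 4 h in time of day and 16 h would not. The oil of 16 and 76 h was pooled here, so these signs do not show whether the differences from the oil of 4 h hold. The labels give no time of day, so that a difference in the hour of collection cannot be told apart from the treatment.

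**Figure D4:**
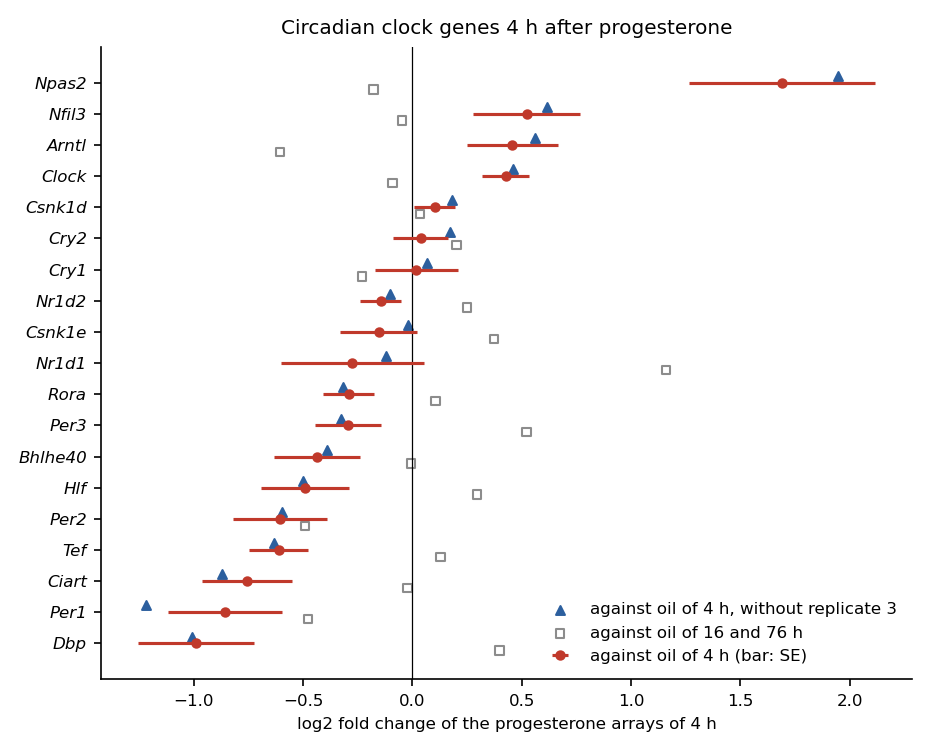
Log2 fold change of the 19 clock genes on the progesterone arrays of 4 h. Red points with SE are against the oil arrays of 4 h, blue triangles the same without progesterone replicate 3, and open squares against the oil arrays of 16 and 76 h; Npas2, Clock and Arntl are above 0 against oil of 4 h and below 0 against the other oil, and Dbp, Tef and Hlf go the other way.

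Cell type markers were set beside these results. The 8 tested markers of hormone-sensing luminal cells had a median of 0.10 on the log2 scale (-0.01 without replicate 3 and -0.11 against the oil arrays of 16 and 76 h, so that it carries no direction), 13 pan-luminal genes -0.16, 18 basal and myoepithelial genes -0.04, 10 fibroblast genes 0.02 and 13 white adipocyte genes -0.10 (0.03 against that other oil). Keratin 8 stood at -0.25 ± 0.16 (SE, adjusted p = 0.541), Krt18 at -0.16 ± 0.13 (SE, adjusted p = 0.674) and Krt5 at -0.08 ± 0.15 (SE, adjusted p = 0.88). The summed intensity of the pan-luminal genes ran from 7289 to 7964 with oil and from 6462 to 7043 with progesterone, and that of the hormone-sensing genes from 3566 to 4120.3 with oil and from 3107 to 4103 with progesterone. The hormone-sensing sums overlapped between groups, whereas the pan-luminal sum was lower on all 3 progesterone arrays. No marker list other than that of hormone-sensing cells, which contains Pgr, held a gene called with all arrays. Lipe, the hormone-sensitive lipase of adipocytes, read 3364, 3969 and 3677 with oil and 2087, 2099 and 3006 with progesterone, a log2 fold change of -0.63 ± 0.15 (SE, adjusted p = 0.0871), and it and Cidec, a lipid droplet protein, were called lower without replicate 3 (-0.81 and -0.47). Against the oil of 16 and 76 h their log2 fold changes were -0.08 and 0.04, and Cidec read 0.41 log2 units higher on the oil arrays of 4 h than on that oil (adjusted p = 0.0248). The summed intensity of the adipocyte genes ran from 88566 to 91575 with oil and from 80425 to 88549 with progesterone, so that it too was lower on all 3 progesterone arrays, by a small margin, and its part in these falls was not tested.

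Lymphocyte genes lay low as whole lists, without a single call. All 11 T cell genes lay below 0 with a median of -0.31, and 3 of them, Ccr7, Cd2 and Cd8b1, wholly below oil. Ccr7, a homing receptor of naive lymphocytes, read 726, 828 and 748 with oil and 490.2, 483 and 645 with progesterone, a log2 fold change of -0.52 ± 0.13 (SE, adjusted p = 0.0871). Cd2, an adhesion receptor, read 577, 677 and 685 with oil and 418, 415 and 575 with progesterone, a log2 fold change of -0.47 ± 0.13 (SE, adjusted p = 0.121). Ccr7, Cd2, Cd5 and Cd3g were called lower without replicate 3, at -0.66, -0.63, -0.58 and -0.71. The summed intensity of the list ran from 7338 to 8966 with oil and from 5759 to 7680.0 with progesterone, so that the groups overlapped. All 13 genes of B and plasma cells lay below 0 too, with a median of -0.25, which was -0.39 without replicate 3 and -0.09 against the oil of 16 and 76 h. Igk, an immunoglobulin light chain, read 429, 546 and 953 with oil and 170.3, 183 and 971 with progesterone: replicates 1 and 2 were low and replicate 3 was as high as the highest oil array. The summed intensity of this list ran from 19263 to 23122 with oil and from 16393 to 25264 with progesterone.

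Progesterone replicate 3 differed from its mates in such lists. The mean log2 level of the B cell genes relative to the 6 arrays was -0.02, 0.18 and 0.22 on the oil arrays and -0.37, -0.37 and 0.35 on the progesterone arrays. For 27 mitosis genes it was -0.28, -0.12 and 0.29 on the oil arrays and -0.18, -0.22 and 0.50 on the progesterone arrays, and for 16 skeletal muscle genes 0.43, 0.30 and 0.13 on the oil arrays and 0.14, -0.16 and -0.84 on the progesterone arrays. Replicate 3 was thus the highest array in B cell and mitosis genes and the lowest in muscle genes. The mitosis list had a median log2 fold change of 0.07 with replicate 3, -0.15 without it and -0.11 against the oil of 16 and 76 h. The muscle list had -0.57, -0.20 and -0.34 in the same order; all 16 genes lay below 0, none was called or free of overlap, and the summed intensity ran from 42939 to 50082 with oil and from 22420.2 to 51186 with progesterone. The part of such cells in the 4 h results was not tested. Of the 23 changed genes, 22 kept their call without the array and against other oil alike. Neither fit tests cell content. Without the array the count of calls rose to 477, and against other oil the progesterone arrays stayed the same. Leaving out any other array of 4 h cost between 6 and 11 of the 23 calls.

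**Figure D5:**
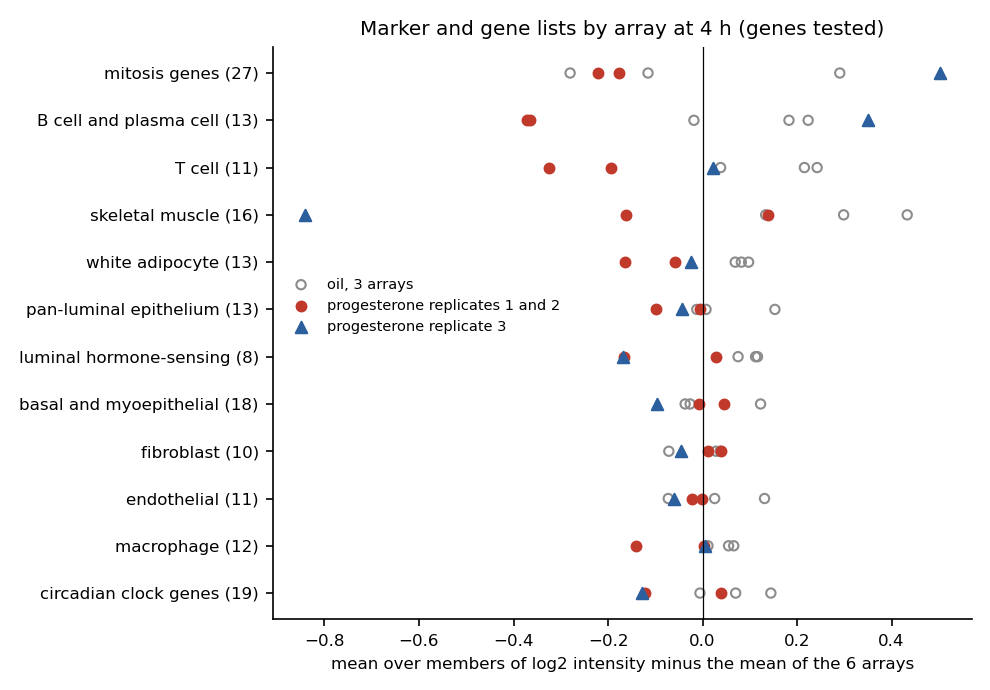
Mean level of 12 lists of markers and genes on the 6 arrays of 4 h, as log2 intensity minus the mean of the 6 arrays, averaged over the tested members (their number in brackets). Open circles are oil arrays, red points progesterone replicates 1 and 2, blue triangles progesterone replicate 3; the triangle is the rightmost point for mitosis and B cell genes and the leftmost for skeletal muscle.

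The test of 4 h against the later times was also read for genes not called at 4 h. Of its 87 genes, 79 were not called at 4 h, and 63 of these were called higher at 76 h. At that time 17.8% of all genes were called, in either direction. The median log2 fold change of the 79 was -0.18 at 4 h and 0.94 at 76 h. The test subtracts the mean of the later differences, so genes not called at 4 h pass it mainly through large later differences. These calls and medians thus follow from the choice of the genes and are a description. Leaving out 1 array of 4 h moved the count of 87 to 368 (progesterone replicate 3) or to between 37 and 54 (each of the others). It was 136 without progesterone replicate 2 of 28 h, and against 16 h alone the count was 1. Among the 10 genes with the smallest p, besides Aldh3a1, B3gnt7, Fgg and Id4, were the basal keratin Krt5, the proteoglycan Sdc1, the collagens Col7a1 and Col18a1, the matrix protein Emid1 and Ccnd1. Krt5 read 236, 200.4 and 204 with oil and 206, 204 and 195 with progesterone at 4 h, with later log2 fold changes of 0.70 at 16 h, 0.95 at 28 h and 1.94 at 76 h. Ccnd1, the cyclin that starts the cell cycle, read 864, 715 and 925 with oil and 629, 667 and 791 with progesterone and later stood at 0.14 at 16 h, 0.57 at 28 h and 1.29 at 76 h. Both overlapped with oil at 4 h. Krt5 was called higher at 16, 28 and 76 h and Ccnd1 at 28 and 76 h. Sdc1, Col7a1, Col18a1 and Emid1 stood at 0.04, -0.19, -0.24 and -0.24 at 4 h and at 1.95, 2.52, 0.94 and 2.37 at 76 h.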

How the data were processed

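Mammary RNA of 24 pools, 5 mice each, was hybridised to Affymetrix Mouse Genome 430 2.0 arrays, 3 arrays in each of 8 groups, per the labels. The deposited table holds linear intensities of 45101 probe sets, with software and normalization not given in the sources used here. The log2 medians of the arrays spanned 0.16, so no further scaling was applied. Probe sets with 1 symbol (34945; 932 had several and 9160 none) were named from the platform's annotation, 64 control probe sets were left out, and each gene was represented by its probe set with the highest mean (18193 genes). Genes above the array median on at least 3 arrays were tested (12352). Values under 7.38, the 10th percentile, were raised to it before log2.

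The fit was limma 3.58.1 (R 4.3.3, statmod 1.5.0) with 1 mean per group over all 24 arrays, an intensity trend and 16 residual degrees of freedom, called at a Benjamini-Hochberg adjusted p under 0.05. The fit without progesterone replicate 3 of 4 h had 15. The scripts were tested on simulated data. Array number limits the precision, and the labels tie no array to a batch. The time of 4 h was set against the mean of the 16, 28 and 76 h differences in the same fit.

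The genes and lists described were chosen with earlier results of these data known. Named were all genes called at 4 h, the 15 largest rises and falls called only without replicate 3 with no overlap, up to 4 members of each list and the 10 genes most unlike the later times. Other members of the lists, such as Rela, Tef, Klf5, Krt8 and Cd3g, were named after their values were seen. Alternatives concerned the filter, the floor, scaling, the variance model, the controls, single arrays and a replicate block. Promoter windows came from RefSeq.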

Additional observations from a re-analysis of the deposited data

Results flagged for a closer look

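The difference between progesterone and oil was not the same at 4 h as later for 87 genes, by a limma test of the 4 h log2 difference against the mean of the 16, 28 and 76 h differences (adjusted p under 0.05), and 30 of them are named here. Values are the 4 h difference minus the later mean on the log2 scale. Above the later times stood Aldh3a1 (3.49), B3gnt7 (2.36), Cntnap2 (2.29), Fgg (2.28), Lalba (1.44), Btn1a1 (1.01) and Rassf6 (0.97). Btn1a1 encodes butyrophilin, a protein of the milk fat globule. Below the later times stood Pgr (-1.53), Tpgs1 (-0.83), Lmo4 (-0.74) and Slc12a2 (-0.71), which were called lower at 4 h.

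The others below the later times were not called at 4 h. Keratins and the epithelial gene Lsr were Krt15 (-1.73), Krt5 (-1.27), Lsr (-1.07) and Krt19 (-1.00). Matrix genes were Vcan (-1.28), Col7a1 (-1.26), Emid1 (-1.21), Sdc1 (-1.03), Col18a1 (-0.83) and Fbln2 (-0.70). The cell cycle genes Ccnd1 and Cdk4 stood at -0.93 and -0.64, and the regulators Id4, Foxa1 and Ier3 at -1.16, -0.89 and -0.94. Aqp5 stood at -0.94, the WNT inhibitor Wif1 at -0.91, the smooth muscle gene Cnn1 at -0.70 and Fkbp4 at -0.68.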

How the results depend on the processing

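The filter, the floor, a pseudocount, quantile normalization, centring, mean probe sets and robust variance gave 20 to 27 calls against 23 and kept the count of falls between 5 and 10; without a filter 19 of the 23 were among the 24 called. Other settings moved counts. Without an intensity trend 4 genes were lower. Array weights, which gave the 3 progesterone arrays 5.50, 0.948 and 0.318, called 2771 genes (1007 higher, 1764 lower), 2039 without replicate 3, and 3273 unlike later. The 6 arrays of 4 h alone called 11 (8 higher, 3 lower), and without replicate 3 they called 840. A threshold of 0.01 left 3 lower genes, 122 calls without replicate 3 and 35 unlike later; 0.1 gave 105 (35 higher, 70 lower), 937 and 212. With the oil of 16, 28 and 76 h as controls 804 were called (377 higher, 427 lower; 1515 without replicate 3), and with that of 16 and 76 h 693 (283 higher, 410 lower; 1158). Against the 16 and 76 h differences 133 genes were unlike later, and against 16 h alone 1 was. Leaving out 1 array gave 12 to 477 calls, 9 to 105 higher and 3 to 372 lower, 37 to 368 unlike later, and 13 to 479 beside replicate 3. Centring gave 15 higher and 10 lower (75 and 412 without replicate 3), quantile normalization 22 and 5 (348 and 297). Csn2 reversed to -1.85 against the oil of 16, 28 and 76 h, and Hadha and Sox10 to 0.37 and 0.54 against that of 16 and 76 h. The cause of these differences was not tested. Signal near background limits the genes below the array median.

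Replicate numbers were not taken as pairs in the main fit, and the labels tie no array to a batch. Deviations of same-numbered progesterone and oil arrays of 4 h correlated at 0.0329, 0.0093 and 0.34. For replicates 1 and 2 the values were 0.342 and -0.018 at 16 h, 0.0619 and 0.0425 at 28 h, and 0.0753 and 0.219 at 76 h. The arrays of replicate 3 deviated together at each time (0.34, 0.346, 0.145 and 0.206 at 4, 16, 28 and 76 h). Whether replicate numbers mark a shared batch was not tested. A replicate block gave 233 calls (48 higher, 185 lower), among them the 23, with 389 without replicate 3 and 326 unlike later.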

Other observations

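Just outside the threshold lay 82 genes with an adjusted p between 0.05 and 0.1, of which 63 were lower and 19 higher with progesterone and 76 were called without progesterone replicate 3. The nearest was Gstt2, a glutathione transferase, at -0.47 ± 0.10 (SE, adjusted p = 0.0546) on the log2 scale. Differences of more than 1 log2 unit that were not called numbered 3 higher and 17 lower.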
